A study of Mus musculus with 18 samples.

Results

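The numbered zinc finger protein genes of the mouse, those whose symbol is Zfp followed by a number alone, were followed in follicular B cells that had met an antibody against their receptor with or without inhibition of the kinase BTK. The array platform gave a single such symbol to 304 genes, Zfp36 left out, and 248 of them passed a filter on signal, among 11104 genes of 18193 that passed it in all. The 248 genes were taken by their name and not by how they changed. A gene was kept when a probe set exceeded 15.2, the median of all values, in 4 or more arrays, and 1 probe set per gene, that of the highest mean, was used.

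RNA came from CD23+ splenic B cells of C57BL/6J mice and was measured on 18 Affymetrix Mouse Genome 430 2.0 arrays. The groups were anti-IgD with PF-303 (n = 5), anti-IgD plus vehicle (n = 4), PBS plus PF-303 (n = 5) and PBS plus vehicle (n = 4). PF-303 blocks BTK, a kinase downstream of the B-cell receptor that activates phospholipase C, and it was injected 2 h before anti-IgD or PBS. Cells were collected 2 h after that second injection. Whether the samples are separate mice is not given in the labels, so the spread behind the p-values is that between these samples and could be technical. The ages and sexes of the mice are not given in the sources used here.

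Most mouse genes of this name encode proteins with C2H2 zinc fingers, short loops around a zinc ion that are strung in arrays and read DNA. Many of them also carry a KRAB domain, which draws the corepressor TRIM28 and the histone methyltransferase SETDB1 to the bound DNA, and such proteins are known for silencing retroelements and for guarding imprinted genes. KRAB zinc finger genes lie in clusters that grew by duplication. The name also covers unrelated proteins with few fingers, among them ribosome factors, ubiquitin ligases and a spindle protein.

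Every array had the same 2%-trimmed mean to within 0.01 (99.96 to 99.97), so each direction is relative to the other genes of an array, and fewer cells of a type cannot be told apart from less RNA per cell. Of the follicular B-cell markers 8 of 10 passed the filter, with summed signals of 25430 to 38860 for anti-IgD with PF-303, 19010 to 22540 for anti-IgD with vehicle, 25060 to 44980 for PBS with PF-303 and 25360 to 48770 for PBS with vehicle. Ighd was not among the genes kept. With anti-IgD in vehicle-treated mice 5 of the 8 were lower. T-cell markers passed in 3 of 8, with sums of 31.2 to 85.8 over the 18 arrays, and Cd3e, Cd4 and Thy1 were not kept. Macrophage and monocyte markers passed in 5 of 5, with sums of 826.9 to 2965, and 1 was called higher in each response to anti-IgD. Neutrophil markers passed in 3 of 5 (67.1 to 837.1), with 1 called higher with anti-IgD under PF-303. Plasma-cell markers passed in 4 of 4 (3189 to 5581). With anti-IgD 1 of them was called higher and 1 lower in vehicle-treated mice, and 2 higher and 1 lower under PF-303. NK-cell markers passed in 2 of 4 (31.4 to 75.2), with 1 called higher with anti-IgD under PF-303. Dendritic-cell markers passed in 4 of 5 (80.9 to 129.1), with 1 called lower with PF-303 in stimulated cells. Erythroid markers passed in 1 of 4 (2.5 to 181) and platelet markers in 3 of 4 (90.2 to 315.3), with 0 called. Of 4 stromal and endothelial markers only Pecam1 passed, at 62.9 to 90.0 for anti-IgD with vehicle and 160.8 to 343.3 for PBS with vehicle. The part of these markers in the results was not tested. In 6 arrays the spike-in controls, RNAs added in known amounts, had 2.25 to 3.72 times their median signal: 2 each of anti-IgD with PF-303 (replicates 1 and 3), PBS with PF-303 (replicates 3 and 4) and PBS with vehicle (replicates 3 and 4). In anti-IgD with vehicle the ratio was 0.534 to 1.18.

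Of the 248 genes, 204 exceeded 15.2 in all 18 arrays, and 0 passed through 1 group alone. The median of their mean signals was 82.2, against 137 for all genes kept. At the edge of the filter, Zfp618, Zfp651 and Zfp658 exceeded it in 4 arrays with median signals of 10.4 to 13.8, and Zfp109, Zfp2 and Zfp526 just missed it, in 3 arrays, with medians of 6.11 to 12.2. Tests of genes below are limma fits to log2(signal + 16) over all 11104 genes, with Benjamini-Hochberg adjustment over all of them. A gene is called at an adjusted p under 0.05. Adjusted p-values given for other probe sets of a gene come from a separate fit over all 20836 probe sets with 1 symbol past the filter, adjusted over those. Adding 16 shrinks the fold changes of dim genes towards 0. A log2 fold change is given with its standard error.

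The first comparison asks what receptor crosslinking does to these genes when BTK is free to work. In vehicle-treated mice far more of them fell with anti-IgD than rose. Of the 248, 92 (37.1%) were called lower and 24 (9.68%) higher, against 30.6% and 17.4% of all genes. In total 116 (46.8%) were called, against 47.9% of all genes, so the share that changed was near the background. The median log2 fold change was -0.24, against -0.13 for all genes, and 190 of 248 values were negative. After every array was shifted to 1 median, which moved the median of all genes to -0.02, the counts were 67 lower and 27 higher for the Zfp genes and 2551 lower and 2390 higher for all genes, with a median of -0.13 for the Zfp genes. With quantile normalization 28.6% of the Zfp genes were lower and 10.1% higher, against 27.5% and 18.7% of all genes. In that setting the share of falls was near that of all genes, and rises stayed fewer. Changes were mostly small: 4 of the called rises and 4 of the called falls reached 2-fold.

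**Figure D1:**
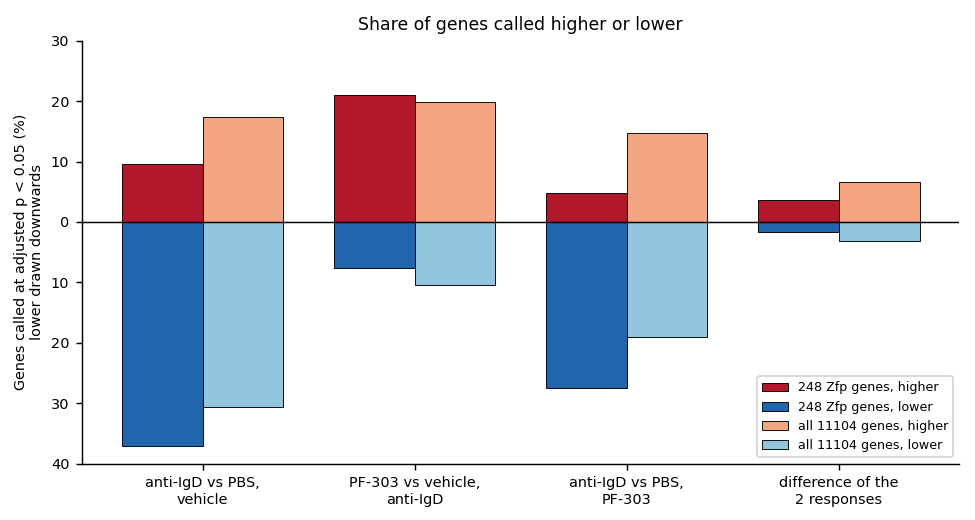
Share of genes called higher (drawn upwards, in %) or lower (drawn downwards, in %) at an adjusted p under 0.05 in 4 comparisons, for the 248 Zfp genes (dark bars) and all 11104 genes (light bars). With anti-IgD the Zfp genes had fewer rises than all genes (9.68% against 17.4% in vehicle, 4.84% against 14.7% under PF-303) and more falls (37.1% against 30.6%, 27.4% against 19.1%). With quantile normalization, not drawn, the falls were 28.6% against 27.5% in vehicle and 20.2% against 17.6% under PF-303.

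The rise of Zfp593 stood above the others. Its protein is related to Bud20 of yeast, which helps carry the large ribosomal subunit out of the nucleus. Its signals were 899.2, 979.5, 977.6 and 1171 in the anti-IgD with vehicle arrays and 304.6, 349.7, 219.8 and 236.2 in the PBS with vehicle arrays. The groups lay far apart, and the log2 fold change was 1.82 ± 0.15 (adjusted p = 2.9e-09). The probe set used has the suffix _x_at, which marks probes that can bind related sequences, and the other probe set of Zfp593 gave 1.71 (adjusted p = 6.4e-06). After it came Zfp948 (1.05 ± 0.20), Zfp783 (1.05 ± 0.16), Zfp52 (1.03 ± 0.20), Zfp202 (0.95 ± 0.12), Zfp330 (0.80 ± 0.10), Zfp566 (0.70 ± 0.12), Zfp296 (0.67 ± 0.09), Zfp131 (0.60 ± 0.09) and Zfp367 (0.56 ± 0.11). Human ZNF202, the counterpart of Zfp202, is known as a repressor of lipid metabolism genes, ZFP131 is a factor with a BTB/POZ domain, and ZFP296 is known from the reprogramming of cells to pluripotency. The second probe set of Zfp367, with a mean signal of 15.7, gave -0.02 and was not called.

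Among the falls Zfp90 and Zfp763 had the lowest values. Zfp90 had 27.5, 29.0, 33.9 and 28.0 in the anti-IgD with vehicle arrays and 99.8, 77.3, 98.8 and 72.3 in the PBS with vehicle arrays. Zfp763 had 24.9, 22.5, 20.8 and 20.5 in the anti-IgD with vehicle arrays and 62.3, 70.8, 61.0 and 76.7 in the PBS with vehicle arrays. Neither gene overlapped between the groups, and the log2 fold changes were -1.17 ± 0.12 (adjusted p = 6.4e-08) and -1.13 ± 0.10 (adjusted p = 9.9e-09). The next falls were those of Zfp53 (-1.08 ± 0.23), Zfp267 (-1.04 ± 0.14), Zfp287 (-0.99 ± 0.15), Zfp945 (-0.98 ± 0.11), Zfp961 (-0.94 ± 0.10), Zfp740 (-0.93 ± 0.10), Zfp688 (-0.92 ± 0.11) and Zfp882 (-0.88 ± 0.14). A second probe set of Zfp961, at a mean signal of 10.8, gave -0.01 and was not called, and that of Zfp287, at 15.1, gave -0.22 and was not called either. The 10 rises and 10 falls named so far stayed called in the same direction under every alternative tried but the use of another probe set. The labels carry a position code, and in row C, the only row letter with arrays of both vehicle groups (1 of each), 24 of the 24 called rises and 90 of the 92 called falls had the same sign, though these arrays also entered the calls.

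Zfp53, Zfp52 and Zfp948 follow each other in the order of Zfp genes on chromosome 17, where the first fell and the other two rose. Their promoters, each from 250 bases before to 50 after the gene's start, are shown because the neighbours moved in opposite directions. The sequences are those of RefSeq on GRCm38.p6, plus strand. Capitals mark stretches of at least 12 bases that Zfp52 and Zfp948 have in common, and for Zfp53 those in common with Zfp52.
Zfp52, chr17:21535289-21535588: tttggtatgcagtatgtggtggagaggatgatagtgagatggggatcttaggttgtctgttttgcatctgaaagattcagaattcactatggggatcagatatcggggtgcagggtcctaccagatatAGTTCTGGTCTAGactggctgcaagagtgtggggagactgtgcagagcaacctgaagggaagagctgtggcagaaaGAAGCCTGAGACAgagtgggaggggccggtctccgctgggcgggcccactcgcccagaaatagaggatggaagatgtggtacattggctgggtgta
Zfp948, chr17:21566728-21567027: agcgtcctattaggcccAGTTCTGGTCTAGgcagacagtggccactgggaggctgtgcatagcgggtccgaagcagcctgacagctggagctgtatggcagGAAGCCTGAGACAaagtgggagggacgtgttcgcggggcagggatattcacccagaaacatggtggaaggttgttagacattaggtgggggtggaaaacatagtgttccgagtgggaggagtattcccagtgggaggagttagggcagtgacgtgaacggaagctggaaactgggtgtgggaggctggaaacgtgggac
Zfp53, chr17:21488738-21489037: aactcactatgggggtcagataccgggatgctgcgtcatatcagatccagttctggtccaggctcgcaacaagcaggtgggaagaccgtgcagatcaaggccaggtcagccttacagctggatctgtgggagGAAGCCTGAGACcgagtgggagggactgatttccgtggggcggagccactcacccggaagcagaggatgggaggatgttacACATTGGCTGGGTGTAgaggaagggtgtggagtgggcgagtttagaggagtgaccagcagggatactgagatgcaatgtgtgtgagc

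The stretches cover 26 bases in Zfp52 and Zfp948 and 28 in Zfp53. In a global alignment Zfp52 and Zfp948 were identical in 50.1% of columns, Zfp53 and Zfp52 in 45.1% and Zfp53 and Zfp948 in 59.9%. The median was 49.6% over the 153 pairs of the 18 promoters found for the run of 20 neighbouring genes described further on. By this percentage the promoters of both rising neighbours were about as alike as the median pair. They were less alike by it than those of Zfp53 and Zfp948. The longest stretch shared exactly was 13 bases for Zfp52 and Zfp948, 16 for Zfp53 and Zfp52 and 14 for Zfp53 and Zfp948. The median over the 153 pairs was 9. The shared stretches lie further along in Zfp52 than in Zfp948, and an alignment of whole windows counts such an offset against likeness.

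**Figure D2:**
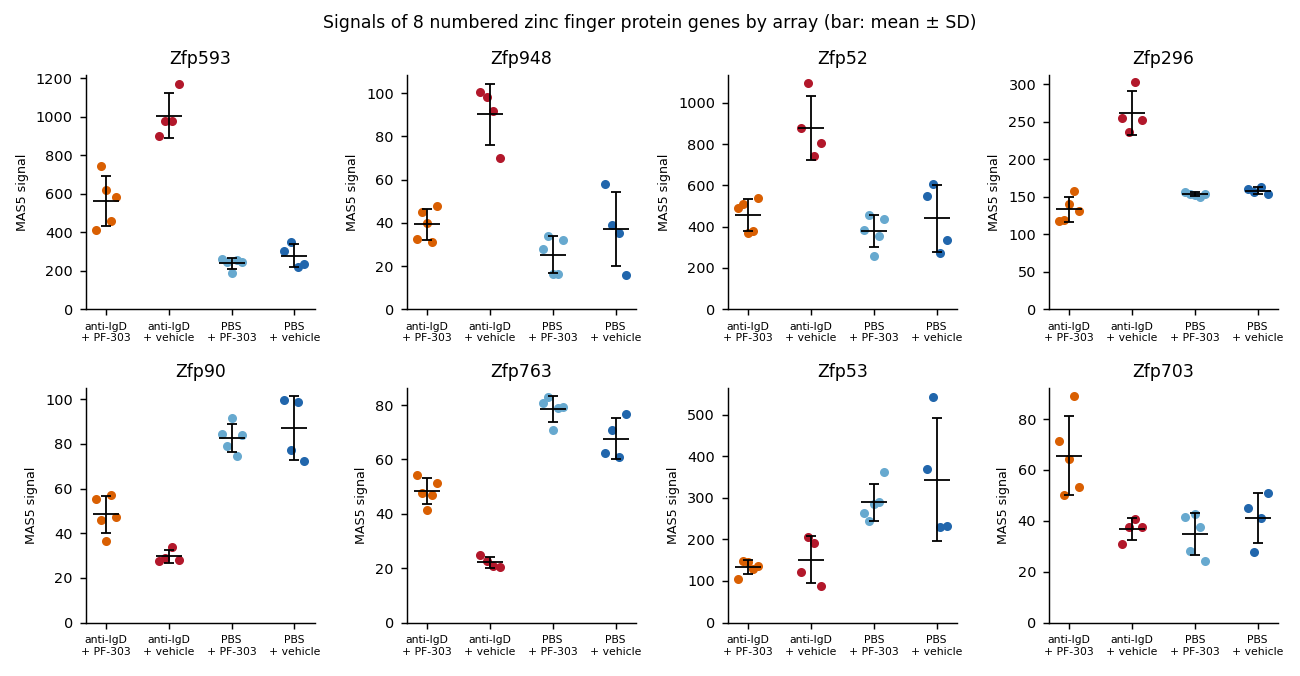
MAS5 signal (linear axis from 0) of 8 Zfp genes in each of the 18 arrays, by group, with the mean and SD as black bars. Zfp593, Zfp948, Zfp52 and Zfp296 were highest with anti-IgD and vehicle; Zfp90 and Zfp763 were lowest there; Zfp53 was low in both anti-IgD groups; Zfp703 was highest with anti-IgD and PF-303.

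The genes were also read by the known roles of their proteins, against 17.4% of all genes higher and 30.6% lower, and no list was tested. Of 6 listed genes linked to ribosomes and translation, 5 were measured, and in the vehicle response 4 were called higher and 0 lower: Zfp593, Zfp330, Zfp598 and, on 1 of its probe sets alone, Zfp207. ZNF330, the human form of Zfp330, is a nucleolar protein, and ZNF598, the human form of Zfp598, is a ubiquitin ligase that marks collided ribosomes (0.43 ± 0.11, a call lost with the position row as a block at 0.42, adjusted p = 0.056). Zfp207 encodes BuGZ, a protein of the mitotic spindle that carries BUB3 rather than a ribosome factor, and its call (0.24 ± 0.09, adjusted p = 0.038) rests on 1 of 6 probe sets. Of its other probe sets 3 were called lower, at -0.72, -0.57 and -0.37, so the gene has no settled direction here. Its call was also lost on leaving out any 1 of 6 arrays (0.17 to 0.24; replicates 2, 4 and 5 of anti-IgD with vehicle and 1, 2 and 4 of PBS with vehicle), and with the mean of its probe sets it was -0.19 (adjusted p = 0.033). Zfp622, whose human form matures the large ribosomal subunit in the cytoplasm, had 1741 ± 69.0 (SD, n = 4) with anti-IgD and vehicle and 1755 ± 92.5 (n = 4) with PBS and vehicle, and was not called (-0.01 ± 0.09).

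Of 7 genes linked to B lymphocytes or lymphocyte development, 4 were measured. Zfp318 encodes a protein that mature B cells need for the long transcripts that are spliced to IgD mRNA, the very receptor that the antibody binds. The main probe set of Zfp318 had 767.8, 750.9, 921.1 and 626.6 with anti-IgD and vehicle and 640.2, 697.9, 1041 and 798.2 with PBS and vehicle. The groups overlapped (-0.04 ± 0.14), and of its 4 other probe sets 1 was called lower (-0.63, adjusted p = 9.4e-05). Zfp608, known from thymocytes as a repressor of the Rag genes, fell (-0.65 ± 0.10), as did its second probe set (-0.84). Zfp335, which T-cell maturation in mice requires, fell (-0.51 ± 0.15), a call lost with the position row as a block (-0.30). Zfp281, a factor studied in embryonic stem cells, rose (0.33 ± 0.10), a call lost with that block too (0.26).

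Of 9 listed genes known for silencing retroelements or guarding imprints, 6 were measured. With anti-IgD 1, Zfp961, fell in vehicle-treated mice and 2, Zfp961 and Zfp809, fell under PF-303 (-0.55 ± 0.09 and -0.43 ± 0.11), against 30.6% and 19.1% of all genes. The second probe set of Zfp961 was called in neither response (-0.01 and 0.02). Zfp445, which acts with ZFP57 at imprinted loci, had 863.3 ± 49.9 (SD, n = 4) with anti-IgD and vehicle and 929.4 ± 54.3 (n = 4) with PBS and vehicle (-0.10 ± 0.08, 95% interval -0.27 to 0.06). Zfp809, which silences murine leukaemia proviruses in embryonic cells, had -0.25 ± 0.12 in vehicle-treated mice, and with the 6 high spike-in arrays left out it was called there (-0.39, adjusted p = 0.022). Zfp568, a repressor of a placental Igf2 promoter, had 0.24 ± 0.15, and Zfp932 and Zfp708, which bind classes of retroelements, had 0.18 ± 0.10 and -0.13 ± 0.14.

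Of 14 widely expressed factors, 13 were measured, with 3 called higher and 5 lower. Higher were Zfp131, Zfp451, which encodes a SUMO ligase (0.56 ± 0.09), and Zfp263 (0.38 ± 0.09). Lower were Zfp217, whose human form works with histone demethylase complexes and is amplified in breast cancer (-0.87 ± 0.10), Zfp592 (-0.81 ± 0.17), Zfp292, whose human form is mutated in chronic lymphocytic leukaemia (-0.46 ± 0.09), Zfp148 (-0.31 ± 0.09) and Zfp746, known as PARIS, a substrate of parkin (-0.29 ± 0.10). The call of Zfp746 was lost on leaving out 1 array, either replicate 4 of PBS with vehicle (-0.25) or the anti-IgD with vehicle array of replicate 1 (-0.27), and those of Zfp148 and Zfp746 after the shift to 1 median (-0.21 and -0.19), with the position row as a block (-0.22 and -0.35) and with the high spike-in arrays left out (-0.19 and -0.22). The call of Zfp263 was lost with the position row as a block (0.24) and with its second probe set (0.16). Not called were Zfp687 (-0.34 ± 0.14), Zfp219 (-0.10 ± 0.20), Zfp91, which encodes a ubiquitin ligase of the NF-kB pathway (-0.07 ± 0.07, but 0.23 to 0.48 in its 3 other probe sets and a called 0.26 as the mean of probe sets), Zfp384 (0.11 ± 0.11) and Zfp410, a factor known for driving the Chd4 gene (0.01 ± 0.10).

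Of the corepressor machinery that KRAB zinc finger proteins use, all 14 listed genes were measured, and 6 rose and 4 fell with anti-IgD in vehicle-treated mice, beside the 17.4% and 30.6% of all genes. Trim28 itself rose (0.33 ± 0.09), as did Chd4 (0.42 ± 0.14), Hdac1 (0.47 ± 0.10) and Hdac2 (0.38 ± 0.08). The SETDB1 partner gene Atf7ip fell (-0.96 ± 0.12), with Morc3 (-0.60 ± 0.10) and the DNA methyltransferase gene Dnmt1 (-0.60 ± 0.11), while Setdb1 was not called (-0.23 ± 0.13). Other zinc finger families named by number had 5 genes higher and 11 lower of 36 for Zbtb, 0 and 4 of 9 for Zkscan, 1 and 2 of 9 for Zscan, 0 and 4 of 5 for Zmym, 5 and 2 of 14 for Zc3h and 4 and 2 of 21 for Zdhhc, beside the same shares of all genes and with no test.

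**Figure D3:**
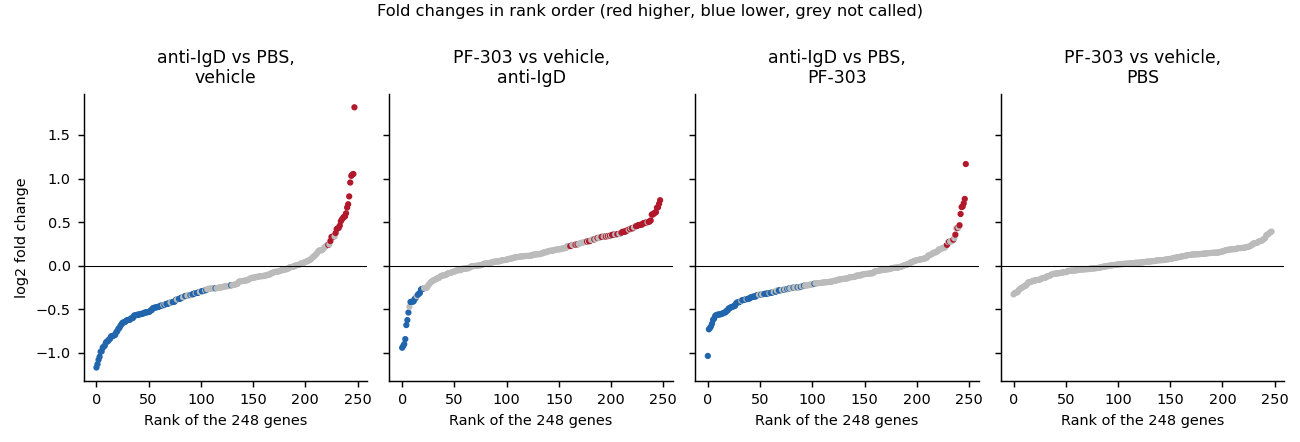
Log2 fold change of the 248 Zfp genes, each panel in its own rank order, for 4 comparisons (red, called higher; blue, called lower; grey, not called). Values ran from -1.17 to 1.82 with anti-IgD in vehicle-treated mice, from -0.94 to 0.75 with PF-303 in stimulated cells, and from -0.33 to 0.39 with PF-303 in unstimulated cells, where 0 genes were called.

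The second comparison asks what BTK inhibition changes in stimulated cells. With PF-303, 52 of the 248 genes (21.0%) were higher and 19 (7.66%) lower than with vehicle, against 19.8% and 10.4% of all genes. In total 71 (28.6%) were called, against 30.2% of all genes, and none reached 2-fold. Both comparisons use the anti-IgD with vehicle arrays, so the values below are given side by side and their opposite signs are not a separate result. With the position row as a block, 26 genes were called in place of 71. In row C (2 arrays of PF-303 and 1 of vehicle) all 52 higher and all 19 lower genes had the same sign, but these arrays entered the calls, so this is no separate support. Of the changes named next, the row block ended the calls of Zfp783 (-0.55), Zfp566 (-0.49), Zfp703 (0.42) and Zfp598 (-0.30), and the second probe sets of Zfp800 (-0.44) and Zfp961 (-0.15) were not called.

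The 4 lowest values were those of Zfp948 (-0.94 ± 0.19, adjusted p = 6.8e-04), Zfp52 (-0.92 ± 0.19), Zfp296 (-0.90 ± 0.08, adjusted p = 1.0e-07) and Zfp593 (-0.84 ± 0.15). For Zfp296 the signals were 117.4, 118.7, 139.8, 157.9 and 131.5 with anti-IgD and PF-303, 254.7, 236.8, 303.4 and 251.7 with anti-IgD and vehicle, 149.9 to 156.8 with PBS and PF-303, and 153.5 to 163.1 with PBS and vehicle. All 4 arrays of anti-IgD with vehicle stood above the other 14, and 4 of the 5 arrays of anti-IgD with PF-303 lay below all 9 unstimulated ones. Zfp593 under PF-303 had 414.3, 745, 617.4, 460.7 and 581.4 in stimulated cells, between the arrays of anti-IgD with vehicle (899.2 to 1171) and those of PBS with PF-303 (187.2 to 260.2). Zfp783 (-0.68 ± 0.16), Zfp202 (-0.62 ± 0.12), Zfp566 (-0.54 ± 0.12) and Zfp800 (-0.42 ± 0.09) were lower too. Of the 5 measured genes linked to ribosomes and translation 3 were lower, Zfp593, Zfp330 (-0.41 ± 0.10) and Zfp598 (-0.32 ± 0.11), and 0 higher. Over all genes 10.4% were lower and 19.8% higher, and the list was not tested. The call of Zfp598 was lost without any 1 of replicates 3, 4 and 5 of the PF-303 group or replicates 1 and 4 of the vehicle group (-0.32 to -0.27).

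Higher with PF-303 were Zfp763 (0.75 ± 0.10, adjusted p = 6.3e-06), Zfp994 (0.71 ± 0.12), Zfp944 (0.67 ± 0.14), Zfp758 (0.67 ± 0.08), Zfp703 (0.61 ± 0.16), Zfp217 (0.61 ± 0.09), Zfp760 (0.60 ± 0.12) and Zfp239 (0.59 ± 0.10). Zfp763 had 54.2, 47.5, 41.4, 47.1 and 51.3 with anti-IgD and PF-303, above all 4 arrays of anti-IgD with vehicle (20.5 to 24.9) and below all 5 of PBS with PF-303 (70.7 to 83.1). Zfp758 had 290.7 to 369.7 (median 345.1) with anti-IgD and PF-303 and 192.7 to 227.3 with anti-IgD and vehicle. With anti-IgD in vehicle-treated mice these 8 genes had -1.13, -0.60, -0.60, -0.57, -0.10, -0.87, -0.80 and -0.05 in the same order. Zfp608 was higher with PF-303 (0.48 ± 0.09), as were Zfp292 (0.33 ± 0.09) and Zfp961 (0.47 ± 0.10). Of the 14 corepressor genes 3 were lower, Chd4 (-0.72 ± 0.13), Hdac2 (-0.39 ± 0.08) and Hdac1 (-0.26 ± 0.09). Only Dnmt1 was higher (0.34 ± 0.11). Over all genes 10.4% were lower and 19.8% higher.

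The third comparison asks what is left of the response to anti-IgD when BTK is inhibited, and shares no array with the first. Under PF-303, 68 of the 248 genes (27.4%) fell and 12 (4.84%) rose, against 19.1% and 14.7% of all genes, and 80 (32.3%) were called in total, against 33.8%. The median was -0.17, against -0.05 for all genes. After the shift to 1 median the counts were 42 lower and 22 higher for the Zfp genes, and 1546 lower and 2011 higher for all genes. With quantile normalization 20.2% of the Zfp genes were lower and 6.85% higher, against 17.6% and 15.6% of all genes. Of the 92 genes that fell in vehicle-treated mice 54 (58.7%) also fell under PF-303, which is 79.4% of the 68, and of the 24 that rose 9 (37.5%) also rose, which is 75.0% of the 12. For all genes the shares were 54.1% and 86.6% of the falls and 64.9% and 76.6% of the rises. None of the 248 was called in opposite directions. In position rows F and G, which held both PF-303 groups, 12 of the 12 rises had the same sign, and 67 and 65 of the 68 falls, again in arrays that entered the calls. Across the genes the fold changes of both responses had a Pearson correlation of 0.73 (248 genes, which are not independent replicates) and a slope of 0.49 of the PF-303 response on the vehicle response, against 0.81 and 0.61 for all genes.

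Zfp593 rose by the largest amount here too (1.17 ± 0.14, adjusted p = 7.7e-07), followed by Zfp367 (0.77 ± 0.10), Zfp655 (0.72 ± 0.08), Zfp703 (0.68 ± 0.15) and Zfp783 (0.67 ± 0.15). Zfp655, whose human form is known as VIK for its binding to the exchange factor VAV1, had 505.2 to 523.9 (median 510.5) with anti-IgD and PF-303 and 280 to 363 (median 295.3) with PBS and PF-303. In vehicle-treated mice its rise was 0.53 ± 0.09, and its 2 other probe sets rose in both responses. With anti-IgD it was higher with PF-303 than with vehicle (0.28 ± 0.08, adjusted p = 0.012), but its other probe sets were not called (0.14 and 0.08), and the call was lost with the position row as a block (0.31, adjusted p = 0.098). The second probe set of Zfp783 gave 0.10 for anti-IgD under PF-303 and was not called. The falls were led by Zfp53 (-1.03 ± 0.20), Zfp945 (-0.73 ± 0.10), Zfp287 (-0.71 ± 0.14), Zfp667 (-0.70 ± 0.14) and Zfp219 (-0.67 ± 0.18). Zfp219 had 8.38 to 44.4 with anti-IgD and PF-303 and 40.8 to 72.4 with PBS and PF-303, and its value was -0.19 and not called when the 6 arrays with high spike-ins were left out. That setting gave -0.44 for Zfp287, still called, whose second probe set gave -0.19 and was not called.

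**Figure D4:**
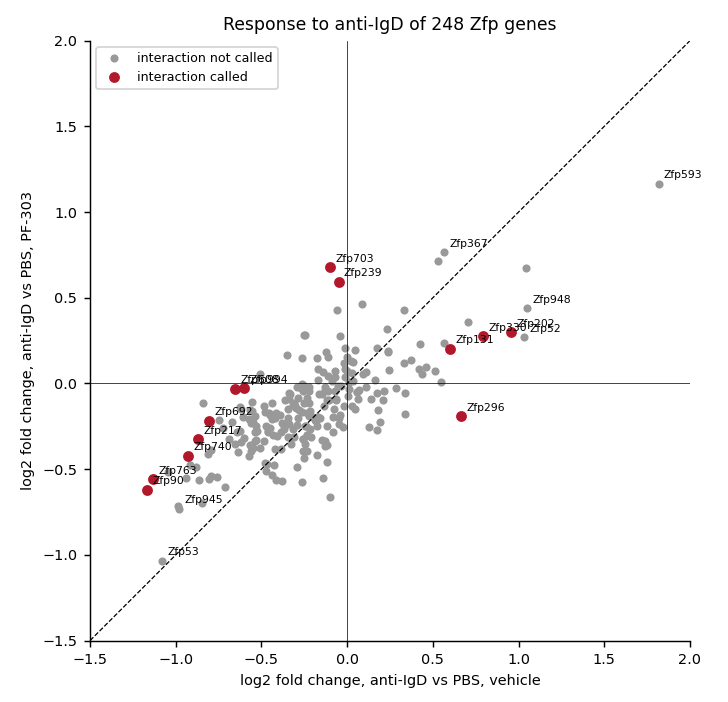
Log2 fold change of anti-IgD against PBS under PF-303 (vertical) and with vehicle (horizontal) for the 248 Zfp genes; red points are the 13 genes whose responses differed in the test of the difference, and the dashed line marks equal responses. Zfp703 and Zfp239 lie above 0 under PF-303 and near 0 in vehicle, Zfp296 lies right of 0 in vehicle and near 0 under PF-303, and Zfp53 lies on the line.

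The difference between both responses, PF-303 minus vehicle, was called for 13 of the 248 genes (5.24%), against 9.78% of all genes. It was positive for 9 (3.63%, against 6.66%) and negative for 4 (1.61%, against 3.12%). Zfp703, whose human form is a breast cancer oncogene, rose with anti-IgD under PF-303 and was not called in the vehicle response (-0.10 ± 0.16). It had 71.5, 50, 64.4, 89.0 and 53.4 with anti-IgD and PF-303, 31.0, 37.6, 40.9 and 37.6 with anti-IgD and vehicle, 24.1 to 42.8 with PBS and PF-303, and 27.7 to 50.8 with PBS and vehicle. Its stimulated arrays under PF-303 overlapped those of PBS with vehicle in 1 array only, and the difference was 0.78 ± 0.22 (adjusted p = 0.027), a call lost without replicate 1 of anti-IgD with vehicle (0.72), replicate 2 (0.73) or 5 (0.70) of PBS with PF-303, or replicate 4 of PBS with vehicle (0.70).

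Zfp239, known as Mok2, had the same form with less spread: 110.1, 135, 116.2, 93.2 and 111.6 with anti-IgD and PF-303, 67.3 to 73.1 with anti-IgD and vehicle, 62.3 to 72.4 with PBS and PF-303, and 64.6 to 83.6 with PBS and vehicle. All 5 arrays of anti-IgD with PF-303 lay above all 13 others, and the difference was 0.64 ± 0.14 (adjusted p = 0.0049). Its call was lost with the position row as a block (0.62, adjusted p = 0.085). Zfp239 and Zfp703 had 1 probe set each past the filter. Zfp608 (0.62 ± 0.13), Zfp692 (0.59 ± 0.15), Zfp994 (0.57 ± 0.17), Zfp763 (0.57 ± 0.14), Zfp90 (0.55 ± 0.16), Zfp217 (0.55 ± 0.13) and Zfp740 (0.51 ± 0.14) had positive differences, with called falls in vehicle-treated mice. Negative differences, with called rises in vehicle-treated mice, were those of Zfp296 (-0.86 ± 0.12, adjusted p = 1.5e-04), Zfp202 (-0.66 ± 0.16), Zfp330 (-0.52 ± 0.14) and Zfp131 (-0.40 ± 0.12). With the position row as a block 3 of the 248 were called in place of 13, with 0 positive and 3 negative, and Zfp296 remained among them (-0.82). The second probe set of Zfp608 gave 0.48 for the difference and was not called. The calls of Zfp131, Zfp90 and Zfp994 were lost on leaving out any of several single arrays (-0.41 to -0.33, 0.49 to 0.55 and 0.51 to 0.57). With the 6 high spike-in arrays left out 7 of the 13 calls were lost, those of Zfp131 (-0.25, adjusted p = 0.34), Zfp994 (0.36, adjusted p = 0.33), Zfp703 (0.72), Zfp740 (0.35), Zfp202 (-0.55), Zfp763 (0.53) and Zfp90 (0.61).

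Without anti-IgD, PF-303 changed none of the 248 genes at an adjusted p under 0.05 in limma, against 0.747% of all genes. An unadjusted p under 0.05 was found for 20 of the 248 and for 1176 of all 11104 genes. Values of the 248 ran from -0.33 to 0.39. The closest named gene was Zfp758, with 370.3 to 431.6 (median 393.8) for PBS with PF-303 and 282.6 to 373.5 for PBS with vehicle (0.30 ± 0.08, adjusted p = 0.11). With replicate 2 of PBS with vehicle left out it was called (0.38).

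The genome positions of the genes add a further description. In the order of protein-coding genes of the RefSeq GRCm38.p6 table, 247 of the 248 genes could be placed. Genes with at most 5 protein-coding genes between neighbours were joined into runs, and 99 genes lay in 13 runs of 4 or more. With anti-IgD in vehicle-treated mice, 47 of the 99 (47.5%) fell and 5 rose, and of the 148 placed genes outside such runs 45 (30.4%) fell and 18 (12.2%) rose, with medians of -0.29 and -0.18, beside 30.6% lower and 17.4% higher over all genes, so the genes outside runs fell at about the background share. Under PF-303, 34 of the 99 (34.3%) fell and 1 rose, and outside the runs 34 of 148 (23.0%) fell and 10 rose, beside 19.1% and 14.7% of all genes. For PF-303 in stimulated cells 27 of the 99 (27.3%) were higher and 5 lower. Outside the runs 25 of 148 (16.9%) were higher and 13 lower, beside 19.8% and 10.4% of all genes. These are counts over genes that share arrays and, within a run, may share ancestry, and they were not tested.

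The longest run held 20 genes on chromosome 17, from Zfp160 to Zfp213, of which 13 fell, 2 rose and 5 were not called with anti-IgD in vehicle-treated mice (median -0.45). The 2 rises were those of the neighbours Zfp52 and Zfp948, whose promoters are given above with that of Zfp53. Other promoters of the run were more alike: those of Zfp943 and Zfp758 were identical in 94.8% of columns and those of Zfp942 and Zfp944 in 84.3%. With anti-IgD in vehicle-treated mice Zfp943 and Zfp758 had -0.65 ± 0.08 and -0.57 ± 0.09, and Zfp942 and Zfp944 had -0.34 ± 0.11 and -0.60 ± 0.15, and whether the probes separate such close copies was not tested.

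Zfp52 had 491.3, 507.5, 370.5, 377.3 and 538.5 with anti-IgD and PF-303, 879.4, 1095, 740.6 and 802.9 with anti-IgD and vehicle, 258.6 to 455.8 (median 385.2) with PBS and PF-303, and 547.9, 605.2, 270.4 and 336.5 with PBS and vehicle. Zfp948 had 32.3, 45.1, 39.97, 31.3 and 47.5 with anti-IgD and PF-303, 100.7, 98.1, 91.8 and 69.8 with anti-IgD and vehicle, 16.2 to 33.7 (median 27.7) with PBS and PF-303, and 57.8, 38.8, 35.5 and 16.1 with PBS and vehicle. For both genes every array of anti-IgD with vehicle lay above all others. Zfp53 had 105.7, 148, 145.6, 128.5 and 135.2 with anti-IgD and PF-303, 122.3, 205, 190.5 and 87.9 with anti-IgD and vehicle, 243.8 to 361.8 (median 285.7) with PBS and PF-303, and 369.2, 542, 229 and 233 with PBS and vehicle. All 9 stimulated arrays lay below all 9 unstimulated ones, and PF-303 made no called difference in stimulated cells (-0.11 ± 0.22, 95% interval -0.56 to 0.33).

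In PBS with vehicle all 3 neighbours were lower in replicates 3 and 4, the arrays with spike-in ratios of 2.25 and 3.72, than in replicates 1 and 2. In PBS with PF-303 the high spike-in arrays, replicates 3 and 4, were the lowest for Zfp52 (258.6 and 354.6) and Zfp948 (16.25 and 16.18). Zfp53 did not share this there: it had 285.7 and 291.1 in them, above replicates 1 and 2 (264.4 and 243.8) and below replicate 5 (361.8). With the 6 high spike-in arrays left out the response in vehicle-treated mice was 0.58 for Zfp52 (adjusted p = 0.0032), 0.73 for Zfp948 (adjusted p = 0.0018) and -1.53 for Zfp53 (adjusted p = 6.1e-05), in place of 1.03, 1.05 and -1.08. The second probe sets of Zfp52 and Zfp53 gave 0.996 and -0.70, both called. The likeness of the transcripts of Zfp52, Zfp948 and Zfp53 at the probes was not tested.

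**Figure D5:**
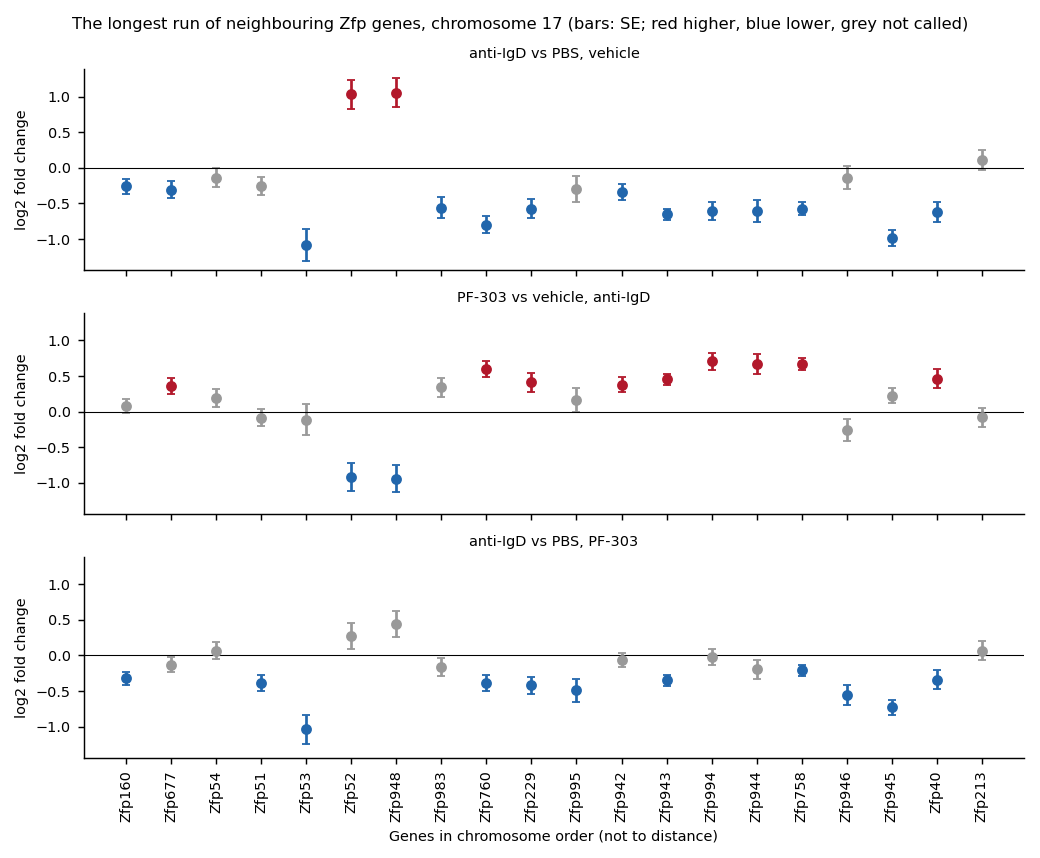
Log2 fold change (points, with SE as bars) of the 20 Zfp genes of the longest run, in their order on chromosome 17 and not to distance, for 3 comparisons; red was called higher, blue lower and grey not called. Zfp52 and Zfp948 alone rose with anti-IgD in vehicle (1.03 and 1.05) and alone were lower with PF-303 (-0.92 and -0.94), while 13 genes fell with anti-IgD.

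Elsewhere in the run Zfp945 (-0.98 ± 0.11), Zfp760 (-0.80 ± 0.12) and Zfp943 had the next-lowest values after Zfp53. With PF-303 in stimulated cells 9 of the 20 were higher and 2, Zfp52 and Zfp948, lower, beside 19.8% and 10.4% of all genes. The next runs were 12 genes on chromosome 13 (7 lower and 0 higher with anti-IgD in vehicle-treated mice, median -0.27), 11 on chromosome 7 (5 lower and 1, Zfp566, higher, median -0.26), 7 on chromosome 6 (4 lower, 0 higher) and 7 more on chromosome 17 that hold Zfp763 (3 lower, 0 higher). A run of 5 on chromosome 7, from Zfp60 to Zfp850, had a median of 0.04, with 0 lower and 1 higher. Over all genes 30.6% were lower and 17.4% higher with anti-IgD in vehicle-treated mice.

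A promoter was found for 208 of the 248 genes in the RefSeq table, and their letters were searched on both strands and set beside 17491 promoters of protein-coding genes, 1 per gene. The ETS motif CCGGAAG was in 21.6% of the Zfp promoters and 11.9% of all, and CCAAT, the NF-Y motif, in 49.0% and 39.0%. For genes that rose and genes that fell with anti-IgD in vehicle-treated mice, the ETS motif was in 22.7% and 23.1%. CCAAT was in 45.5% and 56.4% of them. The E-box CACGTG was in 7.69% of the Zfp promoters and 7.90% of all. Among promoters of genes that rose with anti-IgD in vehicle-treated mice 4 of 22 (18.2%) held it, those of Zfp202, Zfp207, Zfp296 and Zfp507, and among those of genes that fell 7 of 78 (8.97%) did. Of these 4, Zfp207 has no settled direction, as given above, and the split was not tested. The ETS motif and the E-box both contain CG, and the sets differ in base composition. The median number of CG pairs was 16 in the Zfp promoters and 13 in all. It was 18.5 for genes that rose and 15 for genes that fell, with a median GC content of 59.8% and 55.8%. The part of base composition in these shares was not tested. The AP-1 motif TGAGTCA was in 0 of the 22 and in 1 of the 78, against 4.58% of all promoters. The CRE motif TGACGTCA was in 0 and 3 (2.34% of all promoters), the forkhead motif TGTTTAC in 0 and 1 (2.94%), the EGR motif GCGTGGGCG in 1 and 0 (0.84%), and the NF-kB motif in 2 and 7, or 9.09% and 8.97%, near the 8.86% of all. A match is a description of letters in this window and not a bound site.

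How far other probe sets bear out the calls could be read for the 104 genes with more than 1 past the filter. Of 92 further probe sets of genes called with anti-IgD in vehicle-treated mice, 81 had the same sign, 46 were called in that direction and 3, all of Zfp207, in the opposite one. For PF-303 in stimulated cells 53 of 63 had the same sign and 11 were called with it, and for anti-IgD under PF-303 48 of 52 and 15. The Zfp genes were dimmer than most, and the shares were therefore also read by signal. Among genes below the median signal of all genes kept 38.6% of 166 Zfp genes fell and 3.61% rose with anti-IgD in vehicle-treated mice, against 25.8% and 8.99% of all genes below it. Above it 34.1% of 82 fell and 22.0% rose, against 35.3% and 25.7%. Under PF-303 those above it had 31.7% lower and 7.32% higher of 82, against 23.3% and 21.9%. These differences were not tested.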

How the data were processed

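RNA from CD23+ splenic B cells was labelled from 150 ng per sample with a kit that copies transcripts from their 3′ ends and hybridised to 1-colour arrays, per the labels' protocols. Each probe set has 1 linear intensity per array, which the authors computed with MAS5, per the submitters' processing notes; its version and settings are not given in the sources used here. The algorithm sets perfect-match probes against mismatch probes, which makes low signals noisy. Depth does not apply to arrays, and their number limits the precision: over the 248 genes the fold changes (log2) had a median standard error of 0.138 for anti-IgD with vehicle and 0.186 for the difference of the responses. No 2 arrays held identical values.

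The table held 45101 probe sets. The platform annotation gave 34945 of them 1 gene symbol, 932 several and 9160 none, and 64 were controls. The 304 Zfp symbols matched those of the RefSeq GRCm38.p6 gene table through their gene identifiers. Signals were taken as log2(signal + 16), and limma 3.58.1 (lmFit, eBayes with a trend; statmod 1.5.0, R 4.3.3) was fitted to all 18 arrays with 1 mean per group and no block, for 5 contrasts, two-sided, with Benjamini-Hochberg adjustment over 11104 genes. A separate fit of the same form over the 20836 probe sets with 1 symbol past the filter gave the counts of other probe sets called. The fit over genes was tested on simulated data. Group, replicate and position row come from the labels. Alternatives were offsets of 1 and 64, no filter and a filter in 9 arrays, a shift to 1 median, quantile normalization, no trend, array weights, blocks of replicate number and of position row, a spike-in covariate, leaving out the 6 arrays whose spike-ins were high, only the groups of a contrast, the mean of probe sets, the second probe set, and leaving out each array. The genes named are the 10 largest called changes each way for anti-IgD with vehicle, 8 each way for PF-303 with anti-IgD, 5 each way for the other contrasts, the 5 of highest mean signal, and lists by known role. The genes and lists were chosen with earlier results of these data known, and Zfp507, the genes at the filter's edge, Zfp942, Zfp943 and the ends of the runs were named after their values were seen. Promoters were aligned with Biopython 1.88. Protein sequences were not used here, so the genes were not sorted by domain.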

Additional observations from a re-analysis of the deposited data

Results flagged for a closer look

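Among 54 named genes and 4 groups each, 216 sets of signals were searched for an array far from the others of its group by Dixon's test at the 95% level, which chance alone passes in about 1 of 20 sets. It was passed by 8. Zfp593 had 187.2 in replicate 3 of PBS with PF-303, against 243.5 to 260.2 in the others. Zfp330 had 561 in replicate 4 of anti-IgD with vehicle, against 730.1 to 751.9. Zfp994 had 62.2 in replicate 2 of anti-IgD with PF-303, against 87.0 to 95.8, and 69.9 in replicate 4 of PBS with PF-303, against 89.7 to 92.8. Zfp800 had 302.7 in replicate 1 of anti-IgD with PF-303, against 375.6 to 394.5. Zfp655 had 363 in replicate 4 of PBS with PF-303, against 280 to 300.6, and 241.3 in replicate 4 of PBS with vehicle, against 294 to 305.8. Zfp148 had 437.9 in replicate 3 of PBS with vehicle, against 324 to 340. Of these 8 values, 6 came from arrays of high spike-in signal, all but those of Zfp330 and of Zfp994 with anti-IgD.

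The response to anti-IgD differed between PF-303 and vehicle for 13 genes in the limma test of the difference. As log2 values of PF-303 minus vehicle these were 0.779 for Zfp703, 0.643 for Zfp239, 0.621 for Zfp608, 0.588 for Zfp692, 0.574 for Zfp994, 0.572 for Zfp763, 0.547 for Zfp90, 0.546 for Zfp217 and 0.506 for Zfp740, and -0.857 for Zfp296, -0.655 for Zfp202, -0.52 for Zfp330 and -0.40 for Zfp131. Only Zfp703 and Zfp239 had a rise under PF-303 beside no called change with vehicle.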

How the results depend on the processing

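Counts of called genes among the 248 stayed within 1.5 times the reported ones under the alternatives named in the methods, with these exceptions. With the position row as a block 26 were called in place of 71 for PF-303 in stimulated cells, and 3 in place of 13 for the difference of the responses. For PF-303 without anti-IgD, where 0 were called, 1 was called under each of the shift to 1 median, the replicate block and the spike-in covariate (Zfp617 each time), array weights (Zfp758) and the second probe set (Zfp597). Leaving out single arrays gave 102 to 118 called genes for anti-IgD with vehicle, 53 to 76 for PF-303 in stimulated cells, 0 to 1 for PF-303 without anti-IgD, 61 to 87 for anti-IgD under PF-303 and 10 to 17 for the difference. Replicate numbers recur across groups, but of 24 same-numbered pairs of arrays only 7 had deviations from their group means that correlated above 0.1 (-0.161 to 0.225), so the numbers were not taken to pair samples. With the replicate block 121, 69, 1, 84 and 14 genes were called in the order just given. For values called in the reported fit or in the alternative, directions turned only with another choice of probe set: to -0.016 for Zfp367 and -0.568 (second) or -0.192 (mean of probe sets) for Zfp207 with anti-IgD and vehicle, to -0.343 and -0.205 for Zfp207 with anti-IgD under PF-303, to 0.261 and -0.297 for the means of Zfp91 with anti-IgD and vehicle and with PF-303 in stimulated cells, to -0.046 and -0.155 for Zfp287 and Zfp961 with PF-303 in stimulated cells, and to 0.017 for Zfp961 with anti-IgD under PF-303. The cause was not tested. Of the named genes called, 30 of 40 for anti-IgD with vehicle, 16 of 33 for PF-303 in stimulated cells, 14 of 28 for anti-IgD under PF-303 and 2 of 13 for the difference kept their call in every alternative. Signal limits the dim genes: 204 of the 248 exceeded 15.2 in every array.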
